A study of Mus musculus with 32 samples.

Results

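The genes described here are the Eph receptors, their ephrin ligands, the semaphorins, their plexin receptors, the Slit ligands and their Robo receptors of the mouse spinal cord. They were taken by symbol from the deposited gene table: protein-coding genes whose names start with Epha, Ephb, Efna, Efnb, Sema, Plxn, Slit followed by a number, or Robo, without the Slitrk genes and Robo4. Of 57 such genes, 54 reached a mean of 0.5 CPM (a gene's estimated count scaled to its library's total) over the 32 libraries, out of 55938 genes in the table. Epha1, Epha2 and Robo3 were under that minimum. The 54 members were 7 EphA receptors, 5 EphB receptors, 5 ephrin-A and 3 ephrin-B ligands, 20 semaphorins, 9 plexins, 3 Slits and 2 Robo receptors. The minimum is a mean over Trap and Input together, so a gene that is high in 1 of the 2 kinds of library could pass on that kind alone.

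These families are cell-surface or secreted cues and their receptors, first known for steering growing axons. Eph receptors are receptor tyrosine kinases that bind ephrins on neighbouring cells, with ephrin-A ligands held by a lipid anchor and ephrin-B ligands spanning the membrane. Semaphorins are secreted or membrane-bound ligands that act through plexins, often with neuropilins as coreceptors, and Slits are secreted ligands of Robo receptors. In the adult cord, neurons, oligodendrocytes, vessels and astrocytes all carry members of these families.

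RNA came from homogenized lumbar spinal cord of mice with Aldh1l1-CreER and Rpl22-HA, present in every group (the sample labels spell the first Aldhl1l-CreER). The Aldh1l1 promoter drives the inducible Cre recombinase in astrocytes, and recombined cells carry an HA tag on the ribosomal protein Rpl22. Trap libraries hold RNA pulled down with anti-HA antibody, and Input libraries hold RNA of the whole tissue. Both sexes were sampled without injury and at 3, 5 and 7 weeks after a fracture, as a model of complex regional pain syndrome. Each of the 8 combinations of sex and state had 3 Trap libraries and 1 Input library. The sources used here do not give age, the schedule of Cre induction or whether animals were pooled. The labels do not say that libraries came from separate animals, so p-values measure the spread between libraries.

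Total estimated counts ran from 17124034 to 23189228 in the 24 Trap libraries and from 17981133 to 22907909 in the 8 Input libraries. All 20 astrocyte markers were higher in Trap, and all 18 neuron, 14 oligodendrocyte, 13 microglia and 12 endothelial markers were lower, while all 7 blood cell markers tested were higher. Of the remaining marker lists, 4 of 9 oligodendrocyte precursor genes were higher and 5 lower, 4 of 12 mural and meningeal genes were higher and 8 lower, 3 of 7 ependymal genes were higher and 3 lower, and 1 of 7 Schwann cell genes tested was higher and 4 lower. Neuron markers still summed to between 834 and 1713 CPM in Trap, against 10762 to 11685 CPM in Input. The 3 Trap libraries named next correlated least with the others over all genes: male 7 weeks replicate 2 (median r of 0.972), female 5 weeks replicate 3 (0.977) and female 3 weeks replicate 3 (0.978), where the other 21 had 0.981 to 0.984. Results that change without them are given below with both values.

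Trap was set against Input to see which guidance transcripts were enriched in, or depleted from, the astrocyte pull-down relative to the whole cord. Of the 54 members, all tested, 16 were higher in Trap, 36 were lower and 2 were not called. The median log2 difference of the members was -1.35, against 0.02 over all genes tested. A call here is an adjusted p under 0.05 in edgeR's quasi-likelihood test over all 15913 genes tested, and 87.9% of those genes were called (44.4% higher, 43.6% lower). A share of 52 of 54 called is therefore near the background. At over 2-fold, 12 members were higher, where 21.8% of all genes were, and 31 were lower, where 26.7% of all genes were. The receptors Plxnb1 and Ephb3 and the ligands Sema3b and Sema4b were among the most enriched, while Epha6, Efna3, Sema5b, Sema4f, Slit1 and Sema3f were the most depleted. Epha6, Epha8, Sema3f and Sema3g had Trap means under 0.5 CPM and so reached the minimum through their Input level. That favoured a lower value in Trap, and all of them are among the 31 members lower by over 2-fold. Efna4, under 0.5 CPM in every Input library, reached it through its Trap level. The summed neuron, oligodendrocyte, microglia, endothelial, ependymal and Schwann cell markers were also lower in Trap. The Schwann cell list shares Mbp with the oligodendrocyte list and Sox10 with the oligodendrocyte precursor list. Its median log2 difference was -0.39, and the part of Mbp in its sum was not tested. Summed oligodendrocyte precursor markers were higher in Trap, with a median of 1108 CPM against 557 CPM in Input. So were the summed mural and meningeal markers (292 against 102 CPM) and blood cell markers (1413 against 260 CPM). The part of any of these lists in the members' differences was not tested. In such bulk RNA, fewer cells of a type and less RNA per cell cannot be told apart.

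**Figure D1:**
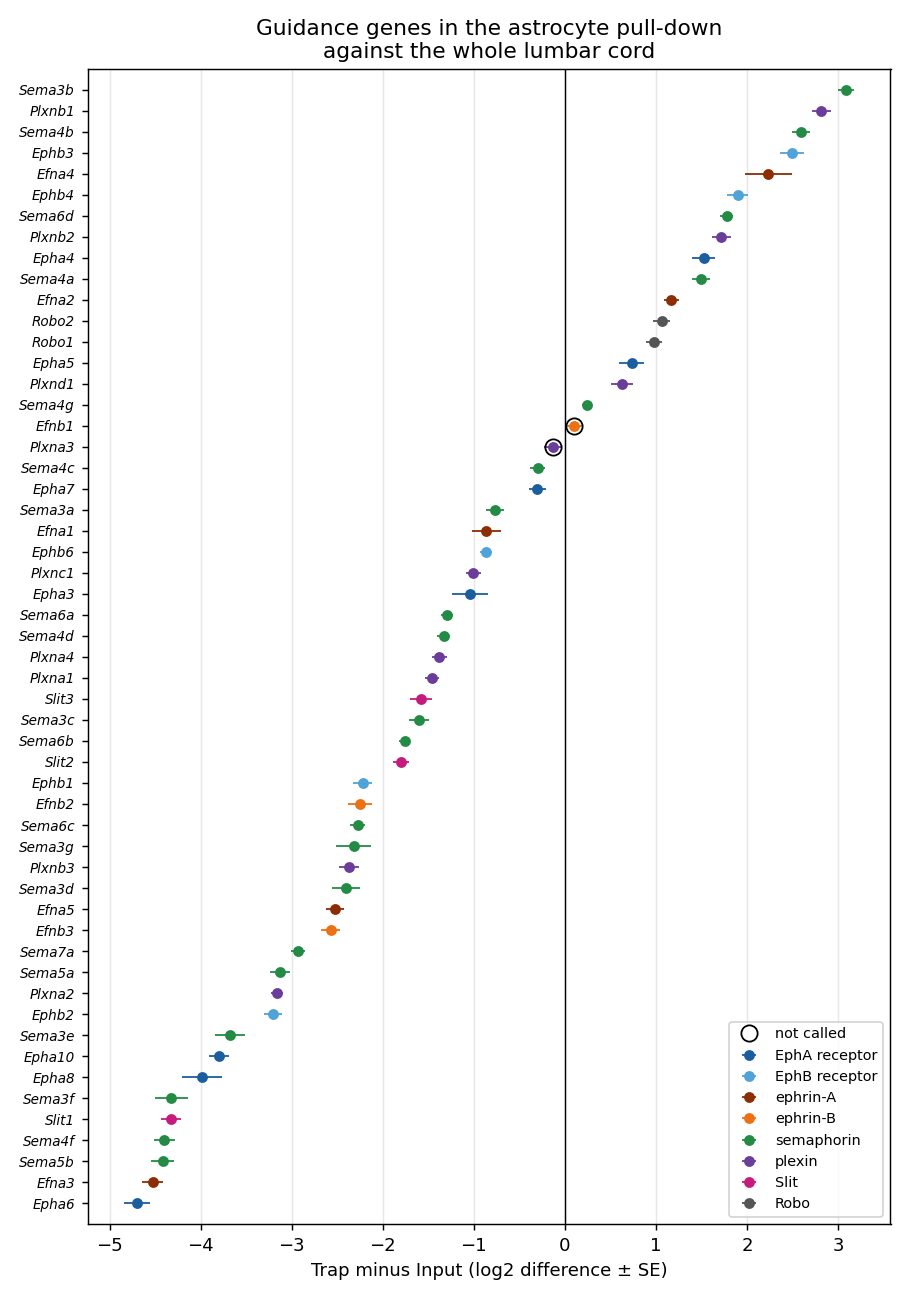
Log2 difference of Trap minus Input (x axis, with its standard error) for each of the 54 members, coloured by family and sorted by value, over 24 Trap and 8 Input libraries. The values run from -4.70 (Epha6) to 3.09 (Sema3b), and circles mark Efnb1 and Plxna3, which were not called.

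Among plexins, Plxnb1 and Plxnb2 stood out. Plxnb1, a receptor for Sema4D, ranged from 572 to 1074 TMM-scaled CPM with a median of 929 in Trap, and from 107 to 147 CPM with a median of 128 in Input. The groups did not overlap, and the difference was 2.82 ± 0.102 on the log2 scale (standard error of the fit, adjusted p = 7.35e-22). Plxnb2, another class B plexin, had 154 ± 23.6 CPM in Trap (SD, n = 24) and 46.7 ± 6.82 CPM in Input (SD, n = 8), a log2 difference of 1.72 ± 0.104. The third class B member, Plxnb3, went the other way, with 9.62 ± 2.80 CPM in Trap and 49.3 ± 3.43 CPM in Input, a log2 difference of -2.37 ± 0.108. Of the class A plexins, receptors that act with neuropilins or bind class 6 semaphorins, 3 of 4 were lower. Plxna2 ranged from 4.76 to 9.09 CPM in Trap (median 6.81) and from 51.2 to 71.8 CPM in Input (median 61.9), without overlap, and its log2 difference of -3.16 ± 0.0656 had the smallest adjusted p of all members (3.28e-29). Plxna1 (-1.46) and Plxna4 (-1.38) were lower as well, and Plxna3 differed by -0.13 ± 0.0976 (95% interval -0.33 to 0.07, adjusted p = 0.211). DESeq2 called Plxna3 lower (-0.23, adjusted p = 0.0291). Plxnd1, a receptor for Sema3E, was higher by 0.63 ± 0.122, with overlapping libraries, and Plxnc1, a receptor for Sema7A, was lower by 1.00 ± 0.0816.

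Of 20 semaphorins, 5 were higher in Trap and 15 were lower, where 44.4% of all genes were higher and 43.6% lower. Sema3b, a secreted class 3 ligand, had the largest positive difference of all members, at 3.09 ± 0.0874. Its Trap libraries ranged from 76.1 to 143 CPM (median 112) and its Input libraries from 12.1 to 13.8 CPM (median 12.9), so that the lowest Trap library was far above the highest Input library. The other 6 class 3 genes were all lower: Sema3f by -4.32, Sema3e by -3.68, Sema3d by -2.41, Sema3g by -2.32, Sema3c by -1.60 and Sema3a by -0.76. Sema3f and Sema3e had 0 counts in at least 1 Trap library, and their Trap means were 0.357 ± 0.239 and 0.552 ± 0.316 CPM.

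The transmembrane class 4 semaphorins split evenly. Sema4b was higher by 2.59 ± 0.101 (78.3 ± 11.7 CPM in Trap, 13.0 ± 1.04 CPM in Input), Sema4a by 1.49 ± 0.0942 and Sema4g by 0.24 ± 0.0566. Sema4d, the ligand of Plxnb1, was lower by 1.33 ± 0.0689, with 40.4 ± 5.87 CPM in Trap and 102 ± 11.0 CPM in Input. Sema4f was lower by 4.40 ± 0.116 and Sema4c by 0.30 ± 0.0818. In class 6, whose members bind class A plexins, Sema6d was higher by 1.78 ± 0.0738, and Sema6a, Sema6b and Sema6c were lower by 1.30, 1.76 and 2.28. Sema6d ranged from 237 to 403 CPM in Trap (median 349) and from 86.6 to 116 CPM in Input (median 100.2), without overlap. Both class 5 genes were lower, and Sema5b had the largest negative difference among semaphorins, at -4.42 ± 0.127. Its Trap libraries lay between 0.0567 and 1.40 CPM (median 0.508) and its Input libraries between 10.5 and 13.6 CPM (median 12.1), with no overlap. Sema7a, a lipid-anchored ligand that acts through integrins and Plxnc1, was lower by 2.93 ± 0.0766, with 19.0 ± 2.77 CPM in Trap and 145 ± 18.6 CPM in Input.

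Of the 12 Eph receptors, 4 were higher and 8 were lower, where 44.4% of all genes were higher and 43.6% lower. Ephb3 ranged from 28.9 to 58.1 CPM in Trap (median 46.7) and from 5.60 to 10.5 CPM in Input (median 8.09), without overlap, and differed by 2.50 ± 0.131 (adjusted p = 2.02e-17). Ephb4, known from vessels, was higher by 1.90 ± 0.114. All 12 endothelial markers were lower, and of 12 mural and meningeal genes 4 were higher and 8 lower. The part of these cells in the level of Ephb4 was not tested. Epha4, a receptor that binds ephrins of both classes, was higher by 1.52 ± 0.128 and had the highest Trap level of the Eph receptors, from 47.3 to 102 CPM (median 76.3) against 21.1 to 30.02 CPM in Input (median 26.7). Its groups did not overlap. Epha5 was higher by 0.73 ± 0.136 with overlapping libraries. Ephb2 (-3.21), Ephb1 (-2.22) and the kinase-inactive Ephb6 (-0.87) were lower. Epha6 was the member with the largest negative difference, -4.70 ± 0.142. Its Trap libraries held 0 to 0.626 CPM (median 0.247) and its Input libraries 4.28 to 9.62 CPM (median 6.34), without overlap. Epha8 (-3.98 ± 0.221) and the kinase-inactive Epha10 (-3.80 ± 0.107) were nearly as low, and Epha3 (-1.04 ± 0.198) and Epha7 (-0.30 ± 0.0909) were lower with libraries that overlapped.

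The ephrin ligands were mostly lower. Efna3 had a median of 46.7 CPM in Input (37.1 to 54.1) and of 1.85 CPM in Trap (0.704 to 4.67), a difference of -4.53 ± 0.115. Efnb3 had the highest Input level of the members per kilobase, and its Trap libraries lay between 21.2 and 60.2 CPM (median 38.7) against 188 to 264 CPM in Input. Neither of these ligands had overlapping groups, and Efnb3 differed by -2.57 ± 0.104. Efnb2 (-2.25 ± 0.133), Efna5 (-2.53 ± 0.101) and Efna1 (-0.87 ± 0.159) were lower too. Efna4 and Efna2 were higher, by 2.23 ± 0.259 and 1.17 ± 0.0848. Efna4 rested on few counts: its Trap libraries ranged from 0.510 to 2.11 CPM (median 0.991) and its Input libraries from 0.0868 to 0.427 CPM (median 0.196), without overlap and with as few as 2 counts in an Input library. Efnb1 differed by 0.10 ± 0.0897 (95% interval -0.08 to 0.29, adjusted p = 0.275).

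The Slit ligands and their receptors were split by role. Both Robo receptors were higher: Robo2 ranged from 70.7 to 146 CPM in Trap (median 110.4) and from 37.4 to 65.4 CPM in Input (median 53.7), without overlap, and Robo1 from 62.1 to 139.8 CPM in Trap (median 109) and from 42.9 to 63.2 CPM in Input (median 54.9), with 1 kind of library just reaching the other. Their log2 differences were 1.06 ± 0.0931 and 0.98 ± 0.0895. All 3 Slits were lower, without overlap. Slit1 ranged from 0.719 to 3.15 CPM in Trap (median 1.47) and from 28.1 to 39.2 CPM in Input (median 30.1), a difference of -4.33 ± 0.109. Slit2 had 10.9 ± 2.72 CPM in Trap and 37.5 ± 4.26 CPM in Input (-1.80 ± 0.088), and Slit3 had 3.54 ± 1.31 CPM in Trap and 10.5 ± 0.856 CPM in Input (-1.58 ± 0.122).

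**Figure D2:**
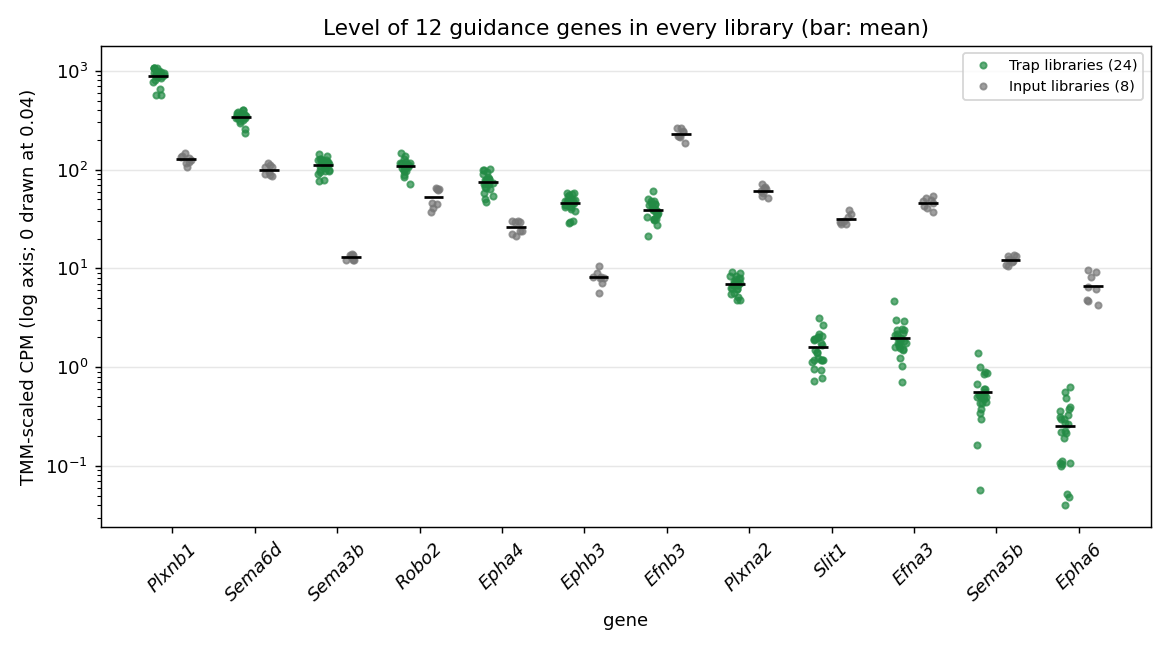
TMM-scaled CPM (log axis) of 12 members in each Trap library (green) and each Input library (grey), with bars at the group means and a count of 0 drawn at the foot of the axis. For Plxnb1, Sema6d, Sema3b, Robo2, Epha4 and Ephb3 every Trap library lay above every Input library, and for Efnb3, Plxna2, Slit1, Efna3, Sema5b and Epha6 every Trap library lay below. The 12 were chosen by their difference or Trap level in these same libraries, so their separation is no further evidence.

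Compared per kilobase of exon, so that genes can be set against each other, Plxnb1 led the members in Trap with a level of 93.5 ± 14.5 CPM per kilobase (SD, n = 24). Sema6d followed with a level of 32.4 ± 3.63, then Sema3b with 23.2 ± 3.65 and Plxnb2 with 19.9 ± 3.06 CPM per kilobase. The ranges of 1 SD around the mean overlapped for Sema3b and Plxnb2. They also overlapped among Sema4b (13.9 ± 2.07), Efnb3 (12.3 ± 2.66) and Sema4a (11.8 ± 1.88). In Input the order was another: Efnb3 came first with a level of 72.7 ± 8.15 CPM per kilobase (SD, n = 8), then Sema7a with 44.0 ± 5.64 and Efna3 with 19.0 ± 2.33. Among the Trap libraries, the coefficient of variation of the CPM level was lowest for Sema4g (9.58%), Ephb6 (10.7%) and Sema6d (11.2%). It was highest for Epha8 (100.2%), Sema3f (66.9%) and Epha6 (64.3%), whose Trap means were under 0.5 CPM.

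Promoter windows of 250 bases before to 50 bases after the gene start were read from RefSeq (GRCm38.p6) for 47 of the 54 members, 63 windows in all. Windows of the most enriched receptors and of strongly depleted members are shown, since the members split into genes high and low in the pull-down. Plxnb1 (chr9:109095186-109095485, plus strand) and Ephb3 (chr16:21204545-21204844, plus strand) were higher in Trap, and Epha6 (chr16:60605482-60605781, minus strand) and Sema5b (chr16:35541112-35541411, plus strand) were lower. Each is written 5′ to 3′ with the CpG dinucleotides in capitals.
Plxnb1: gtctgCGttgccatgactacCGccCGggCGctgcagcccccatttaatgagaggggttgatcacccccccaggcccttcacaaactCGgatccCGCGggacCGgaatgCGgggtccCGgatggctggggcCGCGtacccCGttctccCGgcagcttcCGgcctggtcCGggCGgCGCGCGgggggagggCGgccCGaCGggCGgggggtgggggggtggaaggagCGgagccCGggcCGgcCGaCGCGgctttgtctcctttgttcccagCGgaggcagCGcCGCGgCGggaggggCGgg
Ephb3: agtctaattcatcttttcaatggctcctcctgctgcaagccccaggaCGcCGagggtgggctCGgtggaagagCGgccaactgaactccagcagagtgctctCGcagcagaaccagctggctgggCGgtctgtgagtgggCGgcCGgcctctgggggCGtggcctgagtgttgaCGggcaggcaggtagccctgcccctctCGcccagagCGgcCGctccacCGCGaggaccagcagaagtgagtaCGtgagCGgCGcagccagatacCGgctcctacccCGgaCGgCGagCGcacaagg
Epha6: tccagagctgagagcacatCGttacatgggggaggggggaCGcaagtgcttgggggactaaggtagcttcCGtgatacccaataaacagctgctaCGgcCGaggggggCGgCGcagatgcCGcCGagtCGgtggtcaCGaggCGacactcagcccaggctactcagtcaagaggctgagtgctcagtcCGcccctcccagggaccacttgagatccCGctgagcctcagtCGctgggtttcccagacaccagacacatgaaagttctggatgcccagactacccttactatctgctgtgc
Sema5b: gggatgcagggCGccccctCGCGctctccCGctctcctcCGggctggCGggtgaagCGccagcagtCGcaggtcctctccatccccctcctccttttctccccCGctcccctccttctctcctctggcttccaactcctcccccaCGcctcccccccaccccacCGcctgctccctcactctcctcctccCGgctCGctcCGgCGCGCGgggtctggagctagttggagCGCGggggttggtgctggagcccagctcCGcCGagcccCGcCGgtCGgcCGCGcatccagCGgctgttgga
These windows held 36, 23, 15 and 27 CpG dinucleotides in that order. The median was 20 over the windows of members and 7 over all 32851 RefSeq windows, and it was 15 for the members higher in Trap (23 windows) and 22.5 for those lower (38 windows). The motif GGGCGG, searched on both strands, was in 69.8% of the members' windows, in 69.6% of those of members higher in Trap, in 71.1% of those lower, and in 35.7% of all windows. A match is a description of the letters in these windows only.

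Other genes of the same pathways were read from 2 lists. Of 30 coreceptors and other guidance cues, 12 were higher in Trap and 18 were lower, where 44.4% of all genes were higher and 43.6% lower. Ntn1 (netrin-1, a secreted guidance cue) rose by 2.67 ± 0.0746, from 21.5 ± 2.92 CPM in Input to 137 ± 15.8 CPM in Trap, while Dcc, a netrin receptor, had a log2 difference of -3.48 ± 0.122. Nrp1, a coreceptor for class 3 semaphorins, was higher by 1.08 ± 0.116, and Nrp2, its paralog, was lower by 0.82 ± 0.062. L1cam, a neuronal adhesion molecule, had the largest negative difference of the list (-4.20 ± 0.111). Of 47 genes of intracellular signalling below these receptors, 22 were higher, 22 were lower and 3 were not called, near the shares over all genes. The largest differences were those of Rras, a small GTPase on which plexins act (2.58 ± 0.0936), and Pak3, a kinase downstream of Rac and Cdc42 (-3.83 ± 0.117).

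The comparisons of fracture with no injury asked whether these transcripts changed in astrocytes during the pain model. No member was called in Trap at 3, 5 or 7 weeks among the 52 tested (Epha6 and Epha8 were filtered out for low counts). Of all 15380 genes tested, 0.111% were called at 3 weeks, 0% at 5 weeks and 0% at 7 weeks. At an unadjusted p under 0.05 there were 5, 0 and 0 members, where 1329, 425 and 438 of all genes were, and DESeq2 also called 0 at each time. The median difference of the members was 0.05, 0.02 and -0.00. These 3 comparisons share the uninjured libraries. The 95% interval of the difference lay within 2-fold for 44, 45 and 46 of the 52 members, and within 1.5-fold for 33, 36 and 37.

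**Figure D3:**
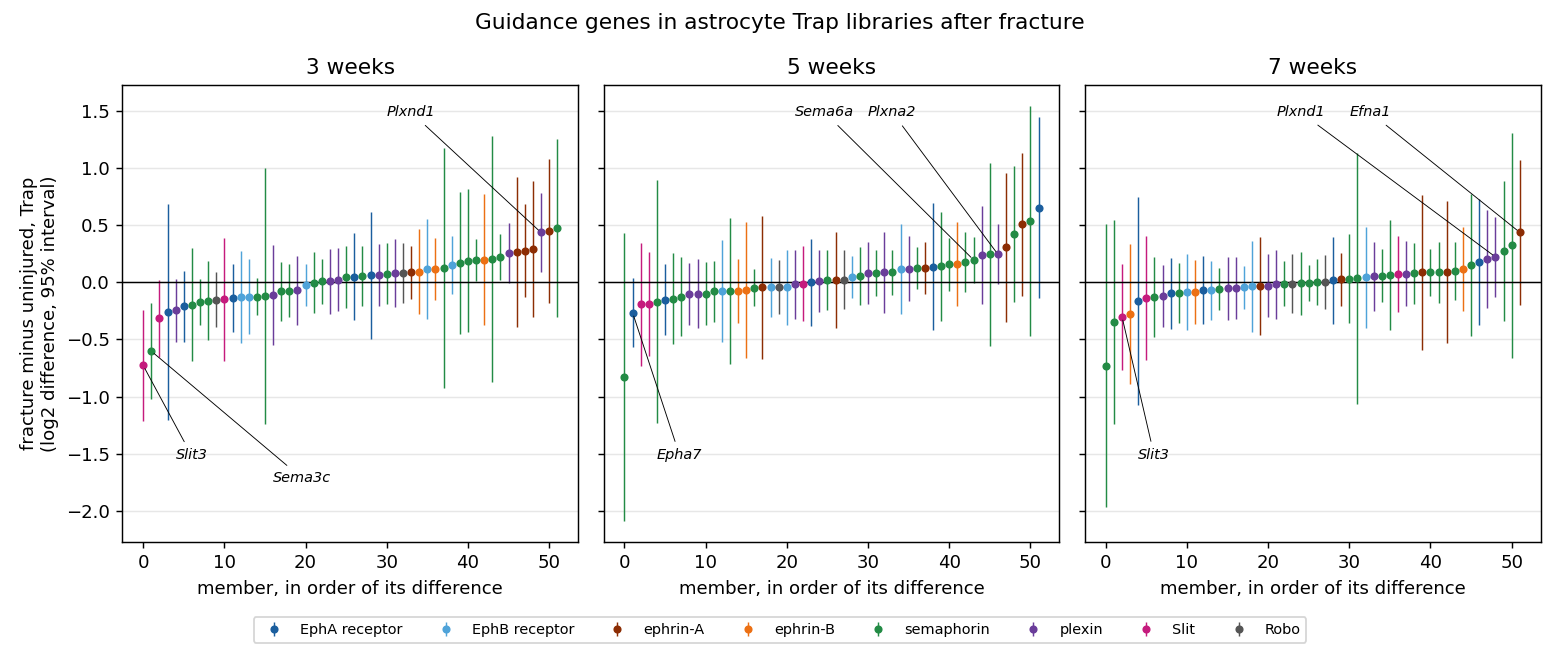
Log2 difference of each fracture time minus uninjured in Trap libraries (y axis, with its 95% interval) for the 52 members tested, sorted by value within each panel and coloured by family. The 3 members with the smallest p at each time are named, and none of the 52 was called.

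Plxnb1 had 929 to 1063 CPM in the 6 uninjured Trap libraries (median 948) and 572 to 971 CPM in the 6 libraries at 3 weeks (median 838), with overlap, a difference of -0.25 ± 0.131 (95% interval -0.52 to 0.03, adjusted p = 0.652). At 5 and 7 weeks its differences were -0.10 ± 0.131 and -0.12 ± 0.131. Of the other 5 members with the largest enrichment in Trap, Sema3b differed by -0.18 ± 0.0982 at 3 weeks, Sema4b by 0.04 ± 0.132, Ephb3 by -0.13 ± 0.159, Efna4 by 0.29 ± 0.29 and Ephb4 by 0.15 ± 0.123. At 5 weeks these 5 differed by 0.08, -0.10, -0.05, -0.05 and -0.05, and at 7 weeks by 0.00, -0.01, -0.09, 0.09 and -0.07, in the same order. All of the 95% intervals at the 3 times included 0.

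At 3 weeks the 3 members with the smallest p were Slit3, Sema3c and Plxnd1. Slit3 ranged from 2.48 to 8.17 CPM without injury (median 3.89) and from 1.66 to 3.32 CPM at 3 weeks (median 2.66), with overlap. Its difference was -0.73 ± 0.236 (adjusted p = 0.265), and without female uninjured replicate 1, the library at 8.17 CPM, it was -0.45 (adjusted p = 0.775). Sema3c ranged from 3.66 to 6.90 CPM without injury (median 5.23) and from 2.16 to 4.98 CPM at 3 weeks (median 3.21), a difference of -0.60 ± 0.202 (adjusted p = 0.299). Plxnd1 ranged from 3.97 to 8.32 CPM without injury (median 6.47) and from 6.95 to 11.4 CPM at 3 weeks (median 8.11), a difference of 0.43 ± 0.166 (adjusted p = 0.412). Each of these pairs of groups overlapped.

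At 5 weeks the smallest p-values were those of Sema6a (0.19 ± 0.098), Plxna2 (0.24 ± 0.127) and Epha7 (-0.27 ± 0.146). At 7 weeks they were those of Efna1 (0.44 ± 0.306), Slit3 (-0.30 ± 0.224) and Plxnd1 (0.22 ± 0.17), and no adjusted p was under 0.99 at either time. Single libraries moved the values at 7 weeks by over 1.5 times. Slit3 was -0.03 without female uninjured replicate 1. Efna1 was 0.20 without female 7 weeks replicate 2, 0.23 without male 7 weeks replicate 3 and 0.69 without male uninjured replicate 2. Plxnd1 was 0.11 without male uninjured replicate 3, 0.14 without male 7 weeks replicate 1 or female uninjured replicate 1, and 0.36 without male uninjured replicate 2. Of the 30 coreceptors and other cues and the 46 signalling genes tested, 0 were called at each of the 3 times. The astrocyte list had 1 of 20 markers lower at 3 weeks, and none of the other marker lists had a called gene at any of these times.

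From 3 to 7 weeks, again 0 of 52 members were called, where 0.0195% of all genes were. At an unadjusted p under 0.05 there were 4, where 1219 of 15380 genes were, and DESeq2 called 0. Sema3c had the smallest p: at 7 weeks its libraries lay between 3.997 and 6.88 CPM (median 5.12), a difference of 0.63 ± 0.201 from 3 weeks (adjusted p = 0.297), with overlap. Sema6b differed by -0.26 ± 0.0889 (adjusted p = 0.389) and Plxna2 by -0.31 ± 0.128 (adjusted p = 0.541). Without the 3 libraries that stood apart, Sema3c (0.83 ± 0.202, adjusted p = 0.0394) and Slit2 (0.63 ± 0.134, adjusted p = 0.0245) were called. That fit called 182 of all genes, where the fit of all Trap libraries called 3. The libraries left out were picked from these same data. They include female 3 weeks replicate 3, where Slit2 was at 12.6 CPM against 7.64 to 9.16 in the other libraries at 3 weeks. With all libraries Slit2 differed by 0.39 ± 0.162 (adjusted p = 0.548).

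**Figure D4:**
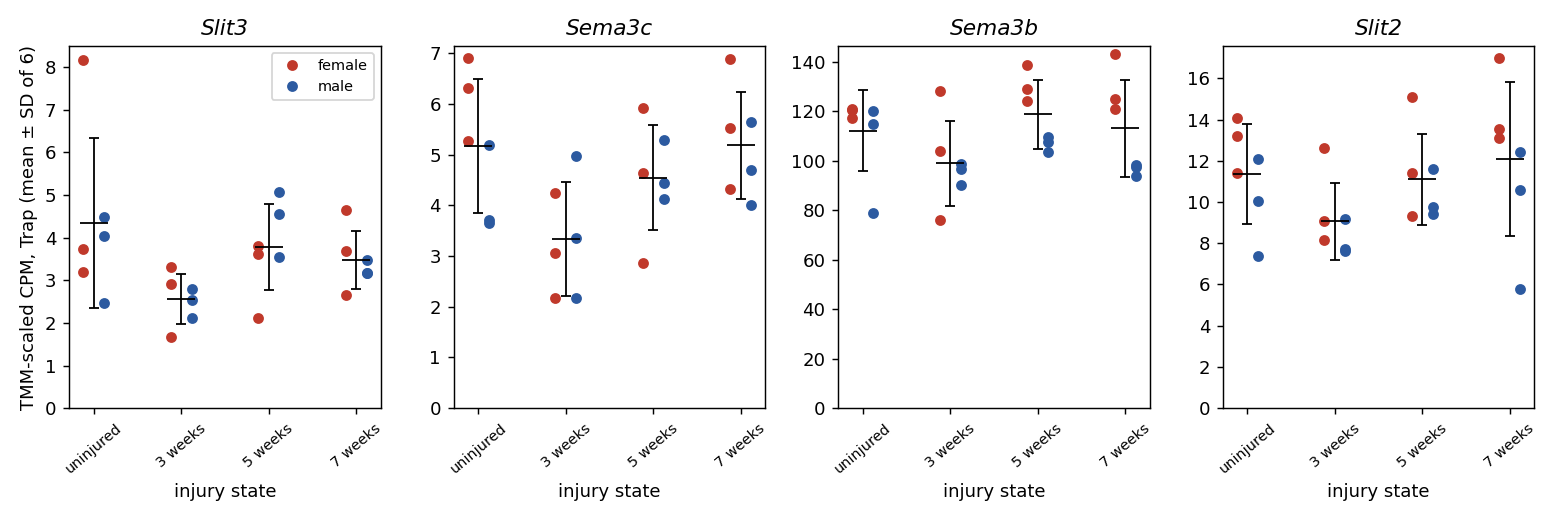
TMM-scaled CPM of Slit3, Sema3c, Sema3b and Slit2 in each Trap library (points, red for females and blue for males), with the mean and SD of the 6 libraries of each state. Libraries of all 4 states overlap for each gene, and Slit3 has 1 uninjured female library at 8.17 CPM above the other uninjured libraries, which lie between 2.48 and 4.47.

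The design has both sexes, and the males were compared with the females over the 4 states. No member was called in Trap, where 0.195% of all genes were. At an unadjusted p under 0.05 there were 6, where 1506 of 15380 genes were, and DESeq2 called 0. The difference was negative, lower in males, for 36 of 52 members (median -0.09, against -0.01 over all genes). Among marker genes, the difference was negative for 12 of 14 oligodendrocyte, 7 of 9 oligodendrocyte precursor, 10 of 13 microglia, 13 of 18 neuron and 8 of 8 blood cell genes. It was positive for 14 of 20 astrocyte genes. Endothelial genes were 5 positive and 6 negative, and mural and meningeal genes 6 positive and 5 negative. Ependymal genes were 1 positive and 5 negative, and Schwann cell genes 2 positive and 4 negative. None of these markers was called. Their part in the members' differences was not tested. In the deposited table the male replicate 1 columns carry a name prefix that the female replicate 1 columns lack. For these columns sex and the set of libraries cannot be told apart. The prefixes of the other replicates share their number between the sexes and differ only in the letter for sex. Whether the sexes were handled as separate sets there is not given. Sema3b ranged from 76.1 to 143 CPM in female Trap libraries (median 123) and from 79.0 to 120.02 CPM in male ones (median 98.7), with overlap. Its difference was -0.26 ± 0.0693 (adjusted p = 0.180). Without female 3 weeks replicate 3 it was -0.30 ± 0.0585 (adjusted p = 0.0200), and without the 3 libraries that stood apart it was -0.30 ± 0.0605 (adjusted p = 0.0225), both called. The fit without these 3 called 109 of all genes, where the fit of all Trap libraries called 30. Slit2 differed by -0.38 ± 0.113 (adjusted p = 0.235) and Sema3a by -0.24 ± 0.0903 (adjusted p = 0.375).

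Whether the fracture response itself differed between the sexes was tested as an interaction. No member was called at 3, 5 or 7 weeks, where 0%, 0% and 0% of all genes were, and 2, 1 and 1 members had an unadjusted p under 0.05, where 398, 466 and 303 of all genes did. DESeq2 called 0 members at each time. The smallest p-values were those of Sema3d at 3 weeks (-1.42 ± 0.596, males minus females), Slit3 at 5 weeks (0.93 ± 0.441) and Ephb6 at 7 weeks (-0.37 ± 0.18). The value of Slit3 was 0.39 without female uninjured replicate 1. The standard errors of these differences had medians of 0.308, 0.308 and 0.308 over the 52 members, so that intervals within 2-fold were reached by 33, 32 and 33 of them.

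Within each sex, 0 members were called at 3 weeks, where 0.039% of all genes were called in females and 0% in males. DESeq2 was not run within a sex, and 6 members in females and 2 in males had an unadjusted p under 0.05, where 1303 and 474 of all genes did. The smallest p in females was that of Sema3c (-0.94 ± 0.276, adjusted p = 0.266), and in males that of Sema6b (0.27).

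In the whole cord, where 53 members were tested in the 8 Input libraries (Efna4 was filtered out), 1 member was called at 3 weeks, where 1.08% of all genes were. Sema3f, a secreted ligand that acts through neuropilin-2, had 5.67 CPM in the uninjured female library and 8.54 CPM in the female library at 3 weeks. In males it had 5.64 and 9.93 CPM. Both sexes were higher at 3 weeks, and the difference was 0.69 ± 0.155 (adjusted p = 0.0397). It was not called by DESeq2, where it has no adjusted p, nor in fits that left out any of the 4 libraries compared (adjusted p from 0.0709 to 0.336). In the same comparison, all 13 microglia genes had positive differences (1 called), 1 of 12 endothelial genes was called higher, and 3 of 20 astrocyte, 2 of 9 oligodendrocyte precursor and 1 of 14 oligodendrocyte genes were called lower. Their part in the difference of Sema3f was not tested. At 5 weeks Sema3f was at 7.07 and 8.04 CPM and at 7 weeks at 6.99 and 5.92 CPM, in the female and the male library. The other 3 class 3 semaphorins with the smallest p missed the threshold at 3 weeks: Sema3d (-0.67, adjusted p = 0.0643), Sema3a (-0.51, adjusted p = 0.0753) and Sema3c (-0.47, adjusted p = 0.0922).

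No member was called in Input at 5 weeks, where 0.107% of all genes were, or at 7 weeks, where 0.214% were. At an unadjusted p under 0.05 there were 10 members at 5 weeks and 5 at 7 weeks, where 1427 and 986 of 16803 genes were, and DESeq2 called 0 at both. The smallest p-values were those of Sema6b (0.25 ± 0.0677), Efnb3 (0.19 ± 0.0536) and Ephb3 (0.55 ± 0.163) at 5 weeks, with adjusted p from 0.268 to 0.322. At 7 weeks they were those of Ephb3 (0.43 ± 0.168), Efnb3 (0.14 ± 0.0538) and Plxna2 (-0.16 ± 0.0695). Ephb3 was 0.23 without the female library at 7 weeks, and Efnb3 was 0.09 without the uninjured female library. With 1 library per sex and state and 3 residual degrees of freedom, the spread in this fit is estimated from little data.

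The Input libraries of the sexes stood apart for many members, a comparison added after the values were seen. Of the 53 members tested, 34 were called between males and females, 16 higher and 18 lower in males, where 46.2% of all genes were called (22.9% higher, 23.3% lower). Sema3d had 11.1, 7.69, 10.3 and 9.33 CPM in the female libraries (uninjured, 3, 5 and 7 weeks) and 5.39, 2.81, 5.36 and 5.15 CPM in the male ones. Epha5 had 36.9, 30.6, 35.2 and 33.6 CPM in females and 21.3, 16.2, 15.5 and 20.4 CPM in males. The sexes did not overlap for either gene, and the differences, males minus females, were -1.09 ± 0.121 and -0.94 ± 0.0743. Sema3a (-0.90), Epha6 (-0.78), Sema3e (-0.78), Sema3c (-0.72), Epha7 (-0.66), Robo2 (-0.64) and Sema5a (-0.56) were also lower in males.

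Other members were higher in the male Input libraries. Sema7a had 127, 131, 127 and 129 CPM in females and 166, 162, 168 and 151 CPM in males, without overlap, a difference of 0.29 ± 0.0422. Plxnd1 (0.38), Sema6c (0.34) and Sema6b (0.31) were higher too, and Plxnd1 was not called by DESeq2 (adjusted p = 0.134). The called members that were higher in males had a median exon length of 6468.5 bases and those lower 10221.5 bases, and over all genes called the medians were 3523 and 6700 bases. The male Input columns carry a name prefix in the deposited table that the female ones lack, so here too sex and the set of libraries cannot be told apart. The comparison of Trap with Input adjusted for sex and state. In females alone it called 50 members and in males alone 51. With all libraries it called 52, and 87.9% of all genes. The shares of all genes in the fits by sex are not given here. Epha5, at 0.73 in all libraries, was 0.35 in females alone (adjusted p = 0.0821) and 1.19 in males alone. Sema4c was -0.10 in females alone (adjusted p = 0.422). In males alone Epha7 was -0.14 (adjusted p = 0.306) and Sema4g 0.14 (adjusted p = 0.144). Of these 5 values, that of Epha5 in males alone was called and the other 4 were not. Plxnd1 was 0.94 in females alone and 0.32 in males alone, and Sema3a -1.03 and -0.44, all 4 called.

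**Figure D5:**
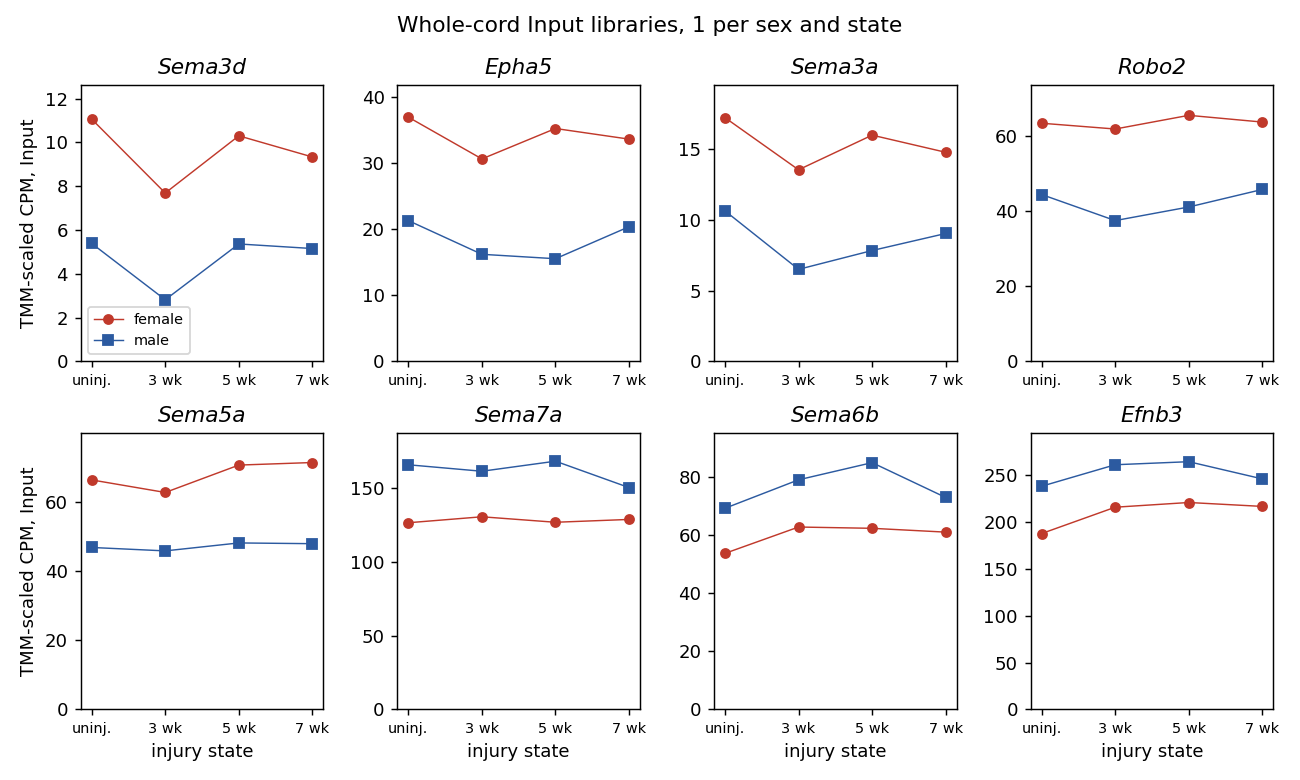
TMM-scaled CPM in the 8 Input libraries, 1 per sex and state, for 8 members (red circles for females, blue squares for males). At every state Sema3d, Epha5, Sema3a, Robo2 and Sema5a were higher in the female library, and Sema7a, Sema6b and Efnb3 were higher in the male library.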

How the data were processed

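Libraries were poly-A RNA of anti-HA pull-downs (Trap) and whole homogenate (Input). The authors deposited estimated counts per gene in 1 table. Per the submitters' processing notes, FastQC, Trim Galore, STAR and RSEM were used with GRCm38; their versions and the annotation release are not given in the sources used here. Between 6.21% and 8.53% of a library's values were not whole, and counts were rounded.

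Genes were filtered by edgeR's filterByExpr, scaled by TMM and tested with edgeR 4.0.16 quasi-likelihood fits (limma 3.58.1, R 4.3.3), 2-sided, with Benjamini-Hochberg adjustment over all genes tested. Trap against Input was fitted over 32 libraries with sex and state as covariates, the Trap comparisons over the 24 Trap libraries and the Input comparisons over the 8 Input libraries. CPM in the text are TMM-scaled, and exon lengths and gene positions come from GENCODE M21. Values by library are given, per class, for the called members with the largest difference each way and the highest Trap level, and for each other comparison for the called members or the 3 with the smallest p. The members and lists were chosen with earlier results of these data known.

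Alternatives were DESeq2 1.42.0 (size factors or Wald test), no filter on low counts, CPM from raw totals, only the groups compared, the replicate number as a block, and leaving out each library of the groups compared in turn (between Trap and Input, each Input library only). The fits by sex, without the 3 libraries that stood apart, and of sex in Input were added after seeing the data. The code was tested on simulated counts.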

Additional observations from a re-analysis of the deposited data

Results flagged for a closer look

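For each of the 28 genes chosen for values by library, the 6 Trap libraries of each of the 4 states and the 8 Input libraries were checked for 1 library far from the rest (Dixon's test). There were 12 such values in these 140 tests, all of them in Trap. The test's nominal rate is about 1 in 20 for a single test on normal values. Because the genes were chosen from these same data and the tests share libraries, that rate is no baseline for the 12.

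Female 3 weeks replicate 3, which also had the highest summed neuron markers (1713 CPM), gave 3 of them. Sema6d was at 261 CPM there against 348 to 359 in the other 5 libraries, Efna3 at 4.67 CPM against 1.03 to 2.18, and Slit2 at 12.6 CPM against 7.64 to 9.16. Female 5 weeks replicate 3 gave 2, with Robo2 at 84.8 CPM against 109.6 to 119 and Ephb6 at 32.7 CPM against 26.4 to 28.1. Both are among the 3 libraries that stood apart over all genes, and the part of this in the values was not tested.

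Male uninjured replicate 3 was low for Sema3b, at 79.0 CPM against 115 to 121, and for Sema3a, at 5.06 CPM against 6.28 to 6.93. Slit3 was at 8.17 CPM in female uninjured replicate 1 against 2.48 to 4.47, the library on which its difference at 3 weeks depends. Robo2 was at 146 CPM in female uninjured replicate 3 against 100.2 to 113. Efna4 was at 1.94 CPM in male 3 weeks replicate 1 against 0.966 to 1.24. Efnb3 was at 60.2 CPM in female 5 weeks replicate 1 against 30.6 to 41.2. Slit1 was at 3.15 CPM in female 7 weeks replicate 3 against 0.944 to 1.76.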

How the results depend on the processing

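No difference of a named gene that was called changed sign under any alternative run. Members called numbered 50 to 53 between Trap and Input, where only Input libraries were left out singly. Of all genes, 13992 were called there with all libraries and 13868 to 13966 with 1 Input library left out. At 3 weeks in Input the 1 call became 0 with the DESeq2 Wald test and without each of the 4 libraries (range 0 to 0). Between males and females in Trap, 0 to 1 members were called with 1 library left out, and 1 without the 3 libraries that stood apart. From 3 to 7 weeks 2 were called without those 3. The cause was not tested.

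Calls over all genes moved more. At 3 weeks in Trap there were 17, against 135 with DESeq2, 34 without a filter, 222 without the 3 libraries and 3 to 47 with 1 library left out. From 3 to 7 weeks there were 3, against 57, 9, 182 and 0 to 38, and 0 with only the groups compared. Between the sexes in Trap there were 30, against 93 with DESeq2, 109 without the 3 libraries and 18 to 47 with 1 library left out. DESeq2 gave 1 against 0 at 5 weeks and in each interaction. In Input, leaving out 1 library gave 34 to 201 at 3 weeks (182 with all), 7 to 49 at 5 weeks (18) and 16 to 50 at 7 weeks (36).

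Same-sex libraries with the same number had correlations of their deviations from -0.0684 to 0.225, over 0.1 in 7 of 36 pairs (median 0.0605), against 1 of 72 with different numbers (median -0.0305). By mean correlation, 19 of 24 libraries were closest to their own number, a hint from the data. Columns of replicates 2 and 3 and of male replicate 1 share a name prefix by number within a sex, whose meaning is not given. The fits without a block were kept because not every pair was over 0.1, which does not exclude a pairing. The standard errors and intervals given above for Trap therefore take no account of one. With a replicate block, 0 members were called in each Trap comparison. A fit of only the replicate 1 Trap libraries against their Input, matched by sex and state and without a replicate block, called 52. The fit of all libraries also called 52, and 87.9% of all genes. Over all genes the block gave 44 calls at 3 weeks (80 within sex), 11 from 3 to 7 weeks (45) and 37 between the sexes (78).

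Members under 1 CPM in Trap rest on few counts, and intervals cover the spread between libraries only.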
